A study of Mus musculus with 8 samples.

Results

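The aquaporins are the family of membrane channels that carry water and, in some members, glycerol and other small solutes across cell membranes. The genes described here are Aqp1, Aqp2, Aqp3, Aqp4, Aqp5, Aqp6, Aqp7, Aqp8, Aqp9 and Aqp11, chosen by gene symbol, 10 of the 52195 genes in a table of bulk RNA-seq values of normal mouse organs. Kidney, lung, liver and small intestine of untreated male C57BL/6J mice (C57BL/6 in the sample labels), aged 6 to 10 weeks, were each measured in 2 libraries, 8 in all. No engineered allele or treatment is named for them. The libraries of a tissue are described as coming from separate mice, and each mouse as giving all of these organs, but the labels do not tie a replicate number to a mouse. With 2 libraries per tissue, every test below measures the spread between these libraries.

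Each aquaporin is a chain that crosses the membrane several times and forms a pore, and the chains assemble as tetramers. Classical aquaporins pass water and little else, aquaglyceroporins also pass glycerol and urea, and the unorthodox members reside mainly in membranes inside the cell. The family is known for the recovery of water along the kidney tubule, under the control of vasopressin in the collecting duct, for fluid movement in lung and glands, and for the exchange of glycerol between fat tissue and liver.

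The pore is lined by a pair of short motifs, in most members asparagine-proline-alanine, 3 residues each. The reading frames of the 10 genes (GENCODE M21 on GRCm38) are 261 to 323 codons long, and 8 of the 10 hold asparagine-proline-alanine at both places. The exceptions are Aqp7 and Aqp11. The codons of both motifs are shown for 2 classical members, for the 3 aquaglyceroporins and for Aqp11, since they mark the groups by which the values are ordered. The motif codons are in capitals with 3 codons on each side, 5′ to 3′ on the coding strand, and the first and last codon of the motif are given.
Aqp1, codons 76 to 78: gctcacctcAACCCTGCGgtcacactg
Aqp1, codons 192 to 194: tgcggtatcAACCCTGCCcggtcattt
Aqp2, codons 68 to 70: gcccacatcAACCCTGCTgtgactgtg
Aqp2, codons 184 to 186: tgctccatgAATCCAGCCcgctccctg
Aqp3, codons 83 to 85: gcccacttgAACCCCGCTgtgaccttc
Aqp3, codons 215 to 217: tatgccgtcAACCCTGCCcgtgacttt
Aqp9, codons 110 to 112: ggccacatcAACCCAGCGgtgtctttt
Aqp9, codons 242 to 244: tgtgccatgAACCCTGCTcgagacctc
Aqp7, codons 79 to 81: gcccacatgAATGCCGCAgtgactttc
Aqp7, codons 211 to 213: tatgcaatcAACCCATCCcgtgacctg
Aqp11, codons 99 to 101: acagctagcAACCCGTGCggcgtgatg
Aqp11, codons 216 to 218: gcattgtttAACCCAGCGctggcactt
In Aqp7 the motifs read asparagine-alanine-alanine and asparagine-proline-serine. In Aqp11 the first reads asparagine-proline-cysteine and the second asparagine-proline-alanine. In Aqp3, Aqp7 and Aqp9 the second motif is followed by arginine and then an aspartate codon, which is a known mark of aquaglyceroporins, while Aqp1 and Aqp2 have arginine followed by serine.

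The values are FPKM, that is, fragments set against both the length of the gene in kilobases and the number of mapped reads in the library. Reads on genes, recovered from the steps between low values, numbered 9164187 to 21444675 per library. A gene at 3 reads or fewer in a library is read as not detectable at this depth, a limit that covers counting error only. Of the 80 values of the 10 genes in 8 libraries, 23 were at 3 reads or fewer. The labels of the tissues were checked against marker genes: summed FPKM was 1349.8 and 924 for 4 markers of the proximal tubule in kidney, 15275.3 and 13271.7 for 4 of alveolar type 2 cells in lung, 41099.5 and 34609.2 for 4 of hepatocytes in liver, and 5455.6 and 7084.7 for 4 of enterocytes in small intestine, each above its sum in every library of the other tissues.

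Aqp1 was abundant in all 4 tissues, and each tissue had its own set of aquaporins beside it. In kidney the summed FPKM of the 10 genes was 474 ± 44.99 (SD, n = 2), of which Aqp1 held 65.2% ± 6.11, Aqp2 21.5% ± 7.98, Aqp3 8.30% ± 1.05 and Aqp6 2.31% ± 0.789. Lung had a sum of 451 ± 33.8, of which Aqp1 held 68.3% ± 2.52 and Aqp5 30.1% ± 2.06. Liver and small intestine had lower sums, at 130.3 ± 0.121 and 125 ± 11.9. In liver Aqp9 held 35.5% ± 4.38, Aqp8 35.0% ± 0.306 and Aqp1 26.9% ± 3.79. In small intestine 6 members held a share above 1%, with Aqp1 at 56.5% ± 18.1, Aqp8 at 21.7% ± 14.7, Aqp3 at 8.90% ± 2.72, Aqp11 at 6.20% ± 0.130, Aqp7 at 3.80% ± 0.0254 and Aqp4 at 1.999% ± 0.0943. These shares depend on the gene length behind each FPKM: on the length of the longest coding transcript Aqp11 in small intestine would be at 19.6 ± 1.45 and Aqp3 at 11.7 ± 4.63, in the reverse order. In bulk tissue, fewer cells of a type and less RNA per cell cannot be told apart, so none of these shares is a share of cells.

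**Figure D1:**
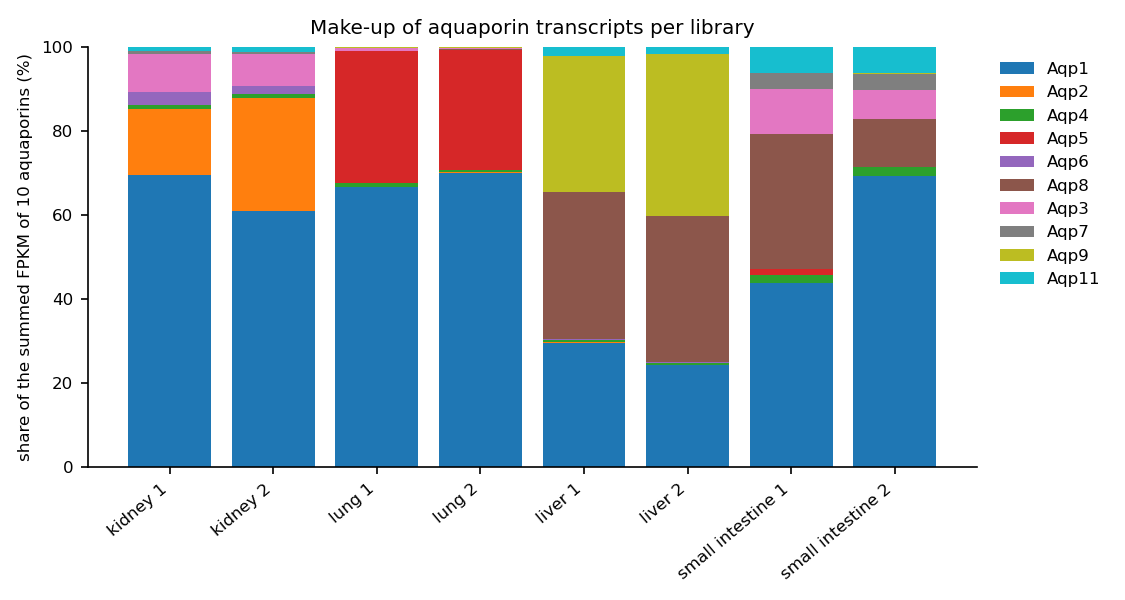
Each stacked bar is 1 library, and the height of a coloured block is the percentage of the summed FPKM of 10 aquaporin genes held by that gene. Aqp1 and Aqp2 fill most of the kidney bars, Aqp1 and Aqp5 the lung bars, Aqp1, Aqp8 and Aqp9 the liver bars, and the small intestine bars differ most between replicates, with Aqp1 at 43.7% and 69.2%.

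For each tissue, limma on log2(FPKM + 1) over 16328 genes gave its difference from the mean of the remaining 3, and calls required a p under 0.05 after Benjamini-Hochberg adjustment together with a log2 difference over 1 in size. Differences on this scale understate the change of genes at low FPKM. In kidney 5 of 10 members were called higher (Aqp1, Aqp2, Aqp3, Aqp6 and Aqp7) and 3 lower (Aqp5, Aqp8 and Aqp9), where 8.65% of all genes tested were called higher and 16.1% lower. In lung 2 were higher (Aqp1 and Aqp5) and 7 lower (Aqp2, Aqp3, Aqp6, Aqp7, Aqp8, Aqp9 and Aqp11), against 40.7% and 8.26% of all genes. The liver had 2 higher (Aqp8 and Aqp9) and 7 lower (Aqp1 to Aqp7), against 6.56% and 32.7%. In small intestine 4 were higher (Aqp3, Aqp7, Aqp8 and Aqp11) and 5 lower (Aqp1, Aqp2, Aqp5, Aqp6 and Aqp9), against 13.7% and 11.3%. The lower calls of Aqp2, Aqp5, Aqp6 and Aqp9 are against means that include the tissue where each was high. No pair among their remaining tissues was called. All 10 members passed the filter on low values, but Aqp2, Aqp5, Aqp6 and Aqp9 did so through the libraries of 1 tissue. Without that tissue they would have been left out. Their differences from the other tissues and the counts are therefore a description, and no p or interval is given for them in the text.

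The deposited scale was not centred equally between tissues, and the median log2 difference of all genes was 0.82 in lung, -0.34 in kidney, -0.0056 in small intestine and -0.72 in liver. The median over the 10 members was -1.26, 0.98, -0.51 and -1.47 in the same order. When the libraries were scaled by the median of ratios, the medians of all genes were -0.02, -0.11, -0.05 and -0.14, and none of the calls above changed direction. On that scale Aqp1 was no longer called higher in lung (0.57, adjusted p = 0.051 in limma), Aqp4 was called higher in kidney (1.17), and Aqp4 was no longer called lower in liver (-0.84).

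**Figure D2:**
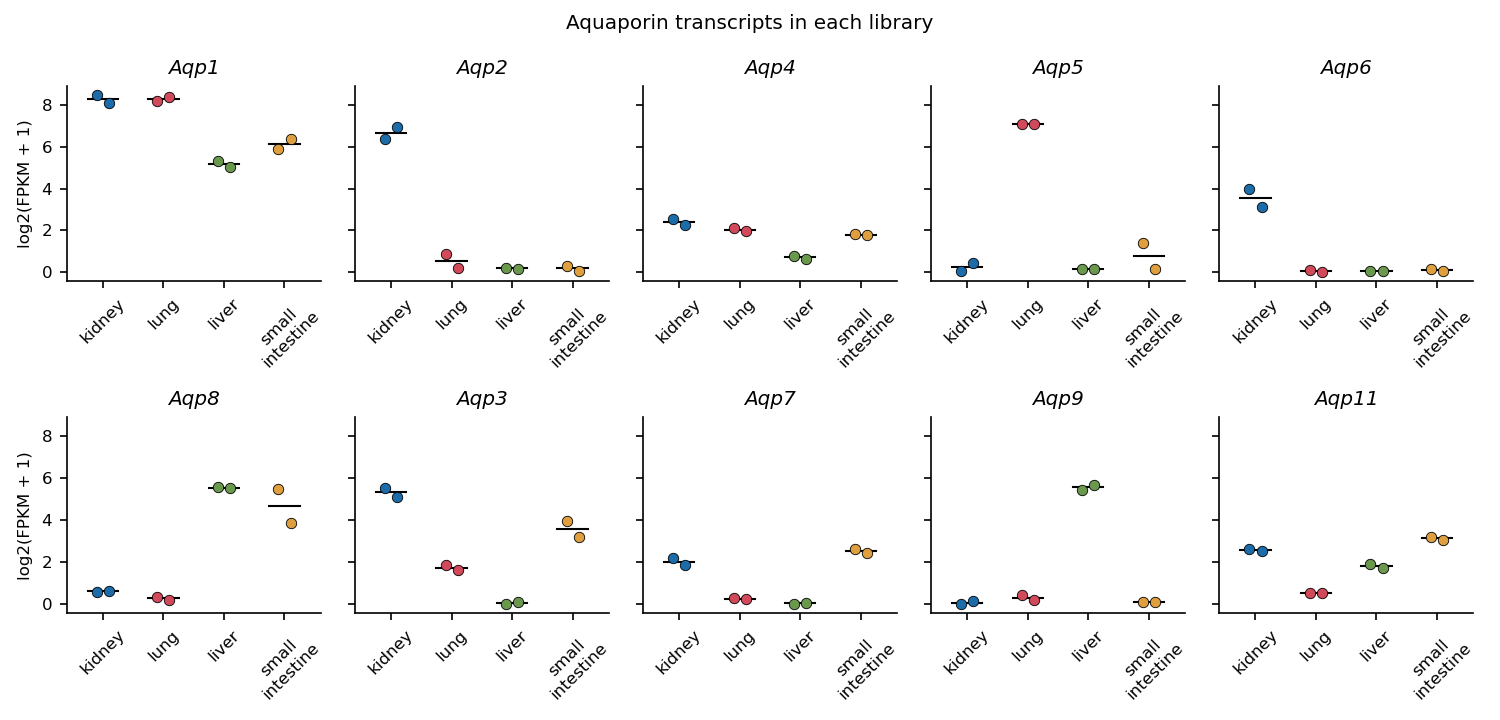
Each panel is 1 gene, the vertical axis is log2(FPKM + 1), the points are the 2 libraries of each tissue with replicate 1 on the left, and the line is their mean. Aqp2 and Aqp6 stand above 3 in kidney alone, Aqp5 in lung alone and Aqp9 in liver alone, while Aqp1 is above 5 in every tissue.

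Aqp1, the water channel of the proximal tubule, the thin descending limb, capillary endothelium and red cells, lies at chr6:55336432-55348555 on the plus strand of GRCm38, the build of all coordinates here. Its FPKM was 352 and 269 in kidney, 284 and 333 in lung, 58.4 and 80.9 in small intestine and 38.5 and 31.5 in liver. The kidney and lung values overlapped, both lay above all libraries of small intestine and liver, and liver was below all others. The log2 difference between kidney and lung was 0.00085 with a 95% interval of -0.50 to 0.50 in limma. Median-of-ratios scaling gave 1.11 for this pair (adjusted p = 0.0087), so the order of kidney and lung depends on how the libraries are scaled. Lung was above small intestine by 2.14 (95% interval 1.64 to 2.65), while small intestine and liver differed by 0.96 (adjusted p = 0.0067), under the size needed for a call.

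Marker genes of cells that carry Aqp1 differed between tissues in their summed level. The summed FPKM of 5 endothelial markers was 307 and 372 in lung and between 7.62 and 26.2 in every other library. That of 5 erythroid genes was 19195.2 and 24891.2 in lung, 867 and 2409.4 in kidney, 726 and 781 in liver and 99.8 to 327 for the gut libraries. The proximal tubule markers were at 6.08 or less outside kidney. The part of these cell types in the Aqp1 values was not tested.

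Aqp2, the channel of collecting duct principal cells that vasopressin moves to the apical membrane, was at an FPKM of 80.1 and 119.9 in kidney, from 2431 and 2940 reads. In lung it was at 0.868 and 0.170, in liver at 0.154 and 0.137, and in small intestine at 0.226 and 0.0624, between 1 and 12 reads per library. The kidney libraries stood far above the others, and 5 of the other 6 were at 3 reads or fewer. Kidney was above the mean of the other tissues by 6.31 on the log2 scale and above lung, the next tissue, by 6.07.

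Aqp6, a channel of vesicles in acid-secreting intercalated cells that also conducts anions, shared this distribution at a lower level. Its FPKM was 14.5 and 7.77 in kidney, and 0 to 2 reads were found in each of the other 6 libraries. Kidney was above the mean of the other tissues by 3.46. The 4 principal cell markers summed to 124 and 80.6 in kidney and the 5 intercalated cell markers to 77.9 and 49.8, both lower in replicate 2. Genes in general were lower in that library, with median-of-ratios size factors of 1.03 in replicate 1 and 0.719 in replicate 2. All 5 intercalated markers were detected in kidney, and of the principal markers Avpr2 was at 0.0646 and 0. Aqp6 was likewise lower in replicate 2, whereas Aqp2 was higher there, and the part of cell composition in these differences was not tested.

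Aqp5, the water channel of the apical membrane in alveolar type 1 cells and in glands, is encoded between these kidney genes. Along chromosome 15 of GRCm38 the plus strand holds Aqp2 (99579055 to 99584547), Aqp5 (99590782 to 99594829) and Aqp6 (99601400 to 99605477), with 6234 and 6570 bases between neighbours and no other protein-coding gene. The FPKM of Aqp5 was 135 and 136 in lung, 1.67 and 0.106 in small intestine, 0.0559 and 0.347 in kidney and 0.131 and 0.116 in liver. Both lung libraries were above every other library, and the next highest value came from 26 reads in small intestine replicate 1. Lung was above the mean of the other tissues by 6.69 and above small intestine by 6.31. The 5 alveolar type 1 markers summed to 1385 and 1695 in lung and to at most 36.2 elsewhere, and 3 airway gland markers to 237 and 103.

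Since Aqp2 and Aqp6 were high in kidney on either side of a gene that was high in lung, the 250 bases upstream of their start sites in RefSeq (GRCm38.p6) are shown, 5′ to 3′ on the plus strand.
Aqp2, chr15:99578806-99579055: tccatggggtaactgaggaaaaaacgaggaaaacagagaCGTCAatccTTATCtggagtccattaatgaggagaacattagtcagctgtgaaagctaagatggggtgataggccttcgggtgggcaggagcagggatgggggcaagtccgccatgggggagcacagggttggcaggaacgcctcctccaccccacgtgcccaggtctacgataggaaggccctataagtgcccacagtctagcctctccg
Aqp6, chr15:99600950-99601199: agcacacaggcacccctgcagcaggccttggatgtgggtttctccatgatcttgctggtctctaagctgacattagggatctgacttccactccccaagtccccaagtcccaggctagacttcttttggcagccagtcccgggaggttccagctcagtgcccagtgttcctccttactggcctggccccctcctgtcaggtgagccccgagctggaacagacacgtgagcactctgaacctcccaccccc
The capitals in the Aqp2 sequence are TGACG, the core of a cyclic AMP response element, and GATAA, the core of a GATA factor site, both read on the opposite strand and beginning at -211 and -202 from the start site. TGACG was found in 17.8% and GATAA in 22.6% of the same windows of all 32851 RefSeq promoters, on either strand. Also searched on both strands were TATAAA (12.4% of promoters), TGACGTCA (1.55%), which contains TGACG, and GGGCGG (32.7%). None of the 5 motifs was in the window of Aqp6, and the window of Aqp5 held GGGCGG at -77 and -34. For Aqp5 these positions count from the RefSeq start, and the window, chr15:99590778-99591027, lies almost wholly inside the GENCODE span given above. RefSeq entries were matched for 9 of the 10 members (not Aqp4), and TATAAA was found in that of Aqp3 alone, at -29.

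Aqp4, the channel of the basolateral membrane of principal cells and of airway epithelium, was low in all 4 tissues. Its FPKM was 4.89 and 3.72 in kidney, 3.33 and 2.87 in lung, 2.59 and 2.42 in small intestine and 0.709 and 0.572 in liver. The kidney libraries were the highest and the liver libraries the lowest, with no overlap between tissues. Kidney and lung differed by 0.37 (95% interval -0.06 to 0.80, adjusted p = 0.108) and lung and small intestine by 0.22 (95% interval -0.21 to 0.66), and small intestine was above liver by 1.09 (95% interval 0.66 to 1.53, adjusted p = 0.0016, limma with Benjamini-Hochberg adjustment). Under median-of-ratios scaling kidney was called above lung, by 1.16, and lung fell below the mean of the others, at -0.38. In lung, markers of skeletal muscle, which expresses Aqp4, summed to 43.0 and 7.07 over 4 genes, against 10.9 and 11.3 in small intestine and at most 0.656 in kidney and liver, and their part in its value was not tested.

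Aqp8, a channel of hepatocytes, intestinal epithelium and pancreatic acinar cells that passes water and ammonia, was high in 2 tissues. Its gene lies at chr7:123462291-123468004 on the plus strand. Its FPKM was 45.9 and 45.3 in liver, 43.0 and 13.3 in small intestine, 0.501 and 0.548 in kidney and 0.259 and 0.153 in lung. The liver libraries were nearly equal, those of the small intestine far apart, and kidney and lung were both low. Small intestine was above kidney by 4.04 (95% interval 2.999 to 5.08), whereas liver and small intestine differed by 0.89 (95% interval -0.15 to 1.93, adjusted p = 0.124, limma with Benjamini-Hochberg adjustment). The comparison rests on small intestine replicate 1: without it liver was above small intestine by 1.70 (adjusted p = 0.0011).

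The small intestine libraries also held pancreatic RNA in unequal amounts. The sum of 8 pancreatic acinar markers was 2621.7 in replicate 1 and 1209.3 in replicate 2, and at most 5.93 in the other 6 libraries. Each of the 8 markers was higher in replicate 1, for example Cpa1, a digestive enzyme, at 188 and 75.5. Aqp12, an acinar aquaporin outside the 10 members, was at 2.16 and 0.812 (22 and 10 reads) in small intestine and at 0 or 1 read in every other library. The ratio of replicate 1 to replicate 2 was 3.23 for Aqp8, 2.66 for Aqp12 and 2.17 for the acinar sum. The part of pancreatic cells in the Aqp8 level of the small intestine was not tested.

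Aqp3, the first of the aquaglyceroporins and the channel of the basolateral membrane of principal cells and of gut and airway epithelium, fell in steps from kidney to liver. Its gene lies at chr4:41092722-41098183 on the minus strand. Its FPKM was 45.7 and 33.4 in kidney, 14.5 and 8.16 in small intestine, 2.58 and 2.07 in lung and 0 and 0.0530 in liver, where only 1 read was counted. No tissue overlapped another. Each step of the order was called: kidney was above small intestine by 1.75 (95% interval 1.11 to 2.40), small intestine above lung by 1.85 (1.199 to 2.49) and lung above liver by 1.69 (1.04 to 2.34), by limma with Benjamini-Hochberg adjustment. Aqp3 was the only member of which all 3 steps were called. The excess of the small intestine over the other tissues, 1.21, fell to 0.83 without small intestine replicate 1 and was then not called.

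Aqp7, the glycerol channel of fat cells and of the proximal straight tubule, lies 44582 bases from Aqp3 on the same strand, at chr4:41033074-41048139, with no protein-coding gene between them. Its FPKM was 5.06 and 4.47 in small intestine, 3.53 and 2.59 in kidney, 0.217 and 0.171 in lung and 0 and 0.0342 in liver. The small intestine libraries were above all others and the liver libraries, with 1 read between them, were not above the limit of detection. Small intestine exceeded kidney by 0.51 (95% interval 0.12 to 0.90, adjusted p = 0.038, limma with Benjamini-Hochberg adjustment), which is below the size needed for a call, and kidney exceeded lung by 1.76 (95% interval 1.37 to 2.15). The call of Aqp7 above the mean of the other tissues in kidney, 1.08, was lost without kidney replicate 1, at 0.91. Of 31-base words in Aqp7 transcripts, 6.23% also occur in transcripts of other genes, the highest share of the 10 members.

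The sum of 5 adipocyte markers was set beside Aqp7. It was 37.6 and 53.8 in small intestine, 27.5 and 18.3 in lung, 0.261 and 0.727 in kidney and 1.49 and 0.540 in liver. Most of the small intestine sum was Cidec, a lipid droplet protein, at 32.2 and 50.008, a gene that is not restricted to fat cells, while Adipoq, the fat cell hormone, was at 4.18 and 2.43 there, at 8.90 and 5.19 in lung and at 0.418 or less in kidney and liver. Lep was at 0 to 0.127 in all 8 libraries. In lung the adipocyte sum was high and Aqp7 low, in kidney the reverse held, and the part of fat cells in the Aqp7 values was not tested.

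Aqp9, the channel through which hepatocytes take up glycerol, was high in liver alone. Its gene lies at chr9:71110659-71168682 on the minus strand. Its FPKM was 42.2 and 50.2 in liver, from 1603 and 2149 reads, and between 0 and 0.321 in the other 6 libraries, from 0 to 13 reads. Both liver libraries were far above every other, and lung, the next tissue, was at 0.321 and 0.155. Liver was above the mean of the other tissues by 5.40 and above lung by 5.25. Aqp9 is also known in neutrophils, whose 4 markers summed to 63.5 and 332 in the lung libraries, and the part of these cells in its lung values, which came from 13 and 8 reads, was not tested.

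Aqp11, an unorthodox channel of the endoplasmic reticulum whose loss gives polycystic kidneys in mice, was detected in all 8 libraries and was lowest in lung. Its gene lies at chr7:97724006-97738289 on the minus strand. Its FPKM was 8.17 and 7.35 in small intestine, 5.08 and 4.75 in kidney, 2.70 and 2.24 in liver and 0.457 and 0.419 in lung. The tissues did not overlap. Small intestine was above kidney by 0.57 (adjusted p = 0.027) and kidney above liver by 0.77 (adjusted p = 0.0088), both under the size needed for a call, and liver was above lung by 1.27 (95% interval 0.87 to 1.66, adjusted p = 0.00025), all from limma with Benjamini-Hochberg adjustment. In liver it differed from the mean of the other tissues by -0.28 (adjusted p = 0.095), a value that was 0.35 after median-of-ratios scaling.

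Levels of different members can be compared only per length, and the length matters for Aqp11 above all. Its merged exons span 9418 bases, the longest of the 10, while the longest coding transcript has 3737 bases. On the length of that transcript its FPKM would be 2.52 times the deposited value, at 12.4 ± 0.573 in kidney (SD, n = 2). Aqp9 in liver would likewise be at 72.5 ± 8.89 in place of 46.2 ± 5.67. For Aqp5, the length with which the deposited values give whole reads was 1667 bases, and on the merged exons of GENCODE M21, 2599 bases, its lung mean would be 86.9 ± 0.562. The differences between tissues are not changed by the length of a gene, apart from the constant added before the logarithm.

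Across all members, the highest tissue was called above the next for 5 of 10: Aqp2, Aqp3, Aqp5, Aqp6 and Aqp9. Among all genes tested, each with its own order of tissues, the highest was called above the next in 34.5%. Of these 5 members, Aqp3 alone would have passed the filter on low values without its highest tissue, so the count is a description. Over all pairs of neighbours in the order of levels, 12 of 30 were called for the members and 20.1% over all genes, and over all pairs of tissues 37 of 60 for the members and 40.4% over all genes. With median-of-ratios scaling the count of members called above their next tissue was 8, with Aqp1, Aqp4 and Aqp8 added, where 30.1% of all genes were called above the next tissue in the same order.

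**Figure D3:**
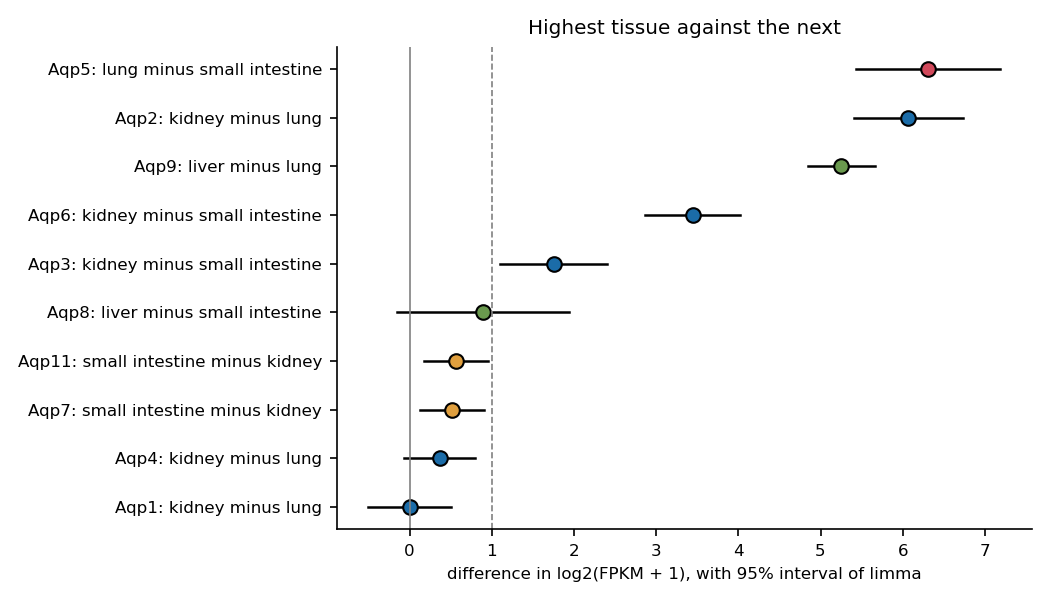
For each of 10 aquaporin genes, the point is the difference in log2(FPKM + 1) between the tissue with the highest mean and the next tissue, coloured by the highest tissue, and the bar is the 95% interval of limma. Aqp5, Aqp2, Aqp9 and Aqp6 lie beyond 3, Aqp3 is at 1.75, and the other 5 lie below the dashed line at 1, with the intervals of Aqp8, Aqp4 and Aqp1 crossing 0. Aqp5, Aqp2, Aqp9 and Aqp6 passed the filter on low values only through their highest tissue, so their bars are a description.

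A member was above every other library in both libraries of 1 tissue in 9 of 10 cases, in kidney for Aqp2, Aqp3, Aqp4 and Aqp6, in lung for Aqp5, in liver for Aqp8 and Aqp9, and in small intestine for Aqp7 and Aqp11. Among all genes tested, 78.6% had such a tissue, with lung in 51.4%, small intestine in 12.8%, kidney in 8.60% and liver in 5.76%. Aqp1, Aqp3, Aqp4 and Aqp7 were below every other library in liver, Aqp3 and Aqp7 from 0 or 1 read, where 35.1% of all genes were, and Aqp8 and Aqp11 in lung, where 4.50% were. For the members other than Aqp2, Aqp5, Aqp6 and Aqp9, the exact permutation test (two-sided, 2 libraries against 6) gave p = 0.0714 each time. Complete separation of the 2 libraries fixes this value in advance, and doubling the smaller tail makes it the smallest this test can give. It therefore carries no information beyond the separation itself.

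The widest differences between the libraries of a tissue were those of Aqp8 and Aqp5 in small intestine. There Aqp8 was higher in replicate 1 by 1.62 on the log2(FPKM + 1) scale, Aqp5 by 1.27 and Aqp3 by 0.76, and 99.3%, 98.6% and 95.01% of all genes tested had a smaller difference there. Aqp1 differed the other way, by 0.46. In kidney Aqp6 was higher in replicate 1 by 0.82 and Aqp2 higher in replicate 2 by 0.58, with 89.7% and 76.9% of genes closer. In lung Aqp2 was higher in replicate 1 by 0.67, from 12 and 3 reads. In liver every member differed by 0.28 or less.

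**Figure D4:**
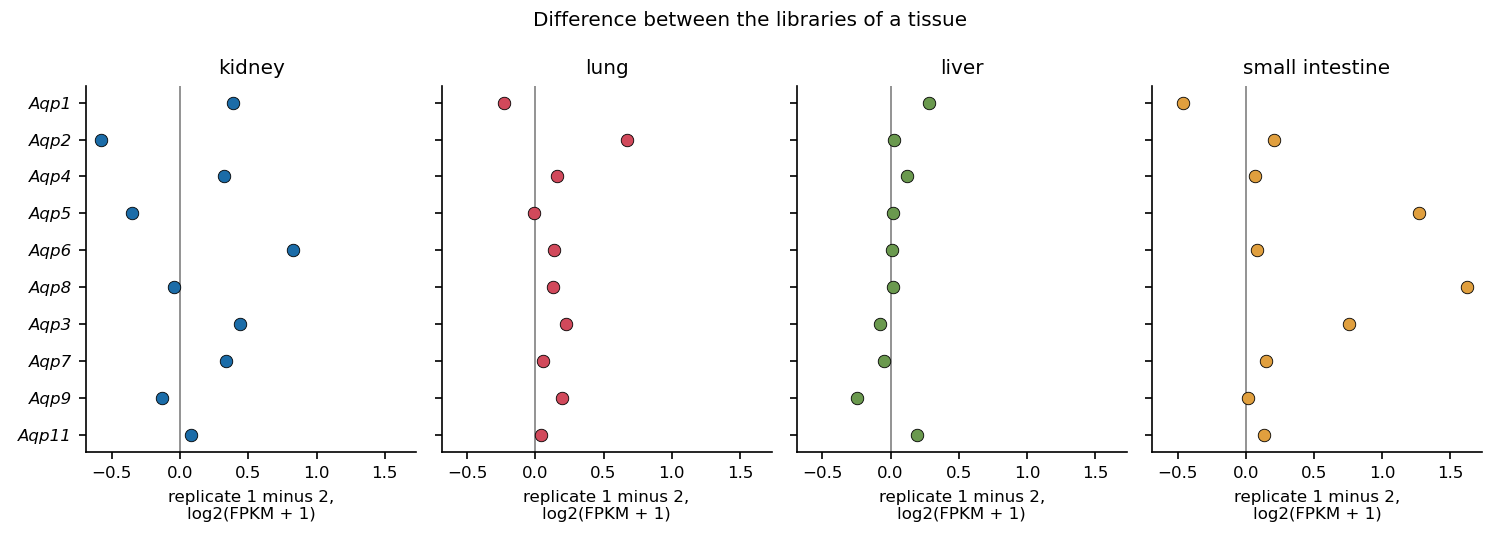
Each point is 1 of 10 aquaporin genes in 1 tissue, and the horizontal axis is its log2(FPKM + 1) in replicate 1 minus that in replicate 2. The points of Aqp8 and Aqp5 in small intestine lie farthest to the right, at 1.62 and 1.27, followed by Aqp6 in kidney at 0.82 and Aqp3 in small intestine at 0.76, and those of liver lie within 0.28 of 0.

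Genes of the pathways around these channels were counted in the same tests. Their counts are to be read against the shares of all genes called higher and lower, 40.7% and 8.26% in lung, 8.65% and 16.1% in kidney, 13.7% and 11.3% in small intestine, and 6.56% and 32.7% in liver. Both the counts and these shares are on the deposited scale. The pathway genes were not counted under median-of-ratios scaling, so the shares of all genes on that scale have no counts beside them. These shares were 14.6% and 16.0% in lung, 11.5% and 12.1% in kidney, 13.0% and 11.6% in small intestine, and 12.3% and 13.9% in liver. Of 11 genes of vasopressin signalling and the control of Aqp2, 9 were tested, and only Tfcp2l1, a transcription factor of the collecting duct, was called higher in kidney, at 19.6 and 5.33, with none lower. Its libraries differed in the direction opposite to Aqp2. Avpr2, the vasopressin receptor of principal cells, was at 0.0646 and 0 in kidney beside an Aqp2 of 80.1 and 119.9. Of its exon length, 81.3% is shared with the neighbouring Arhgap4, and reads there cannot be told apart without knowing how overlapping genes were counted. In lung 4 of the 9 were higher and none lower, in liver 4 were lower and none higher, and in small intestine 1 was higher.

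All 7 tested genes of urea and salt transport in the urine concentrating mechanism, of 8 listed, were higher in kidney. They were lower in each of the other tissues, against means that include kidney. They included Slc12a1, the salt transporter of the thick ascending limb, at 139.5 and 55.5 in kidney, and Slc14a2, a urea transporter of the collecting duct, at 14.1 and 7.27. Of 4 genes of organic osmolyte accumulation, Akr1b3 and Slc5a3 were higher in kidney. Akr1b3, the aldose reductase that makes sorbitol, was also higher in lung, at 11.9 and 13.2 against 6.94 and 12.1 in kidney. In liver Akr1b3, Slc5a3 and Slc6a6 were lower, while the betaine transporter Slc6a12 was higher, at 18.4 and 18.3. Slc6a12 was called lower in lung and small intestine, against means that include these liver values.

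Among 9 genes of glycerol release and use, the pathway of Aqp3, Aqp7 and Aqp9, 4 were higher in small intestine (Lipe, Gk, Gpd1 and Gpd2) and 2 lower (Mgll and Fbp1). In kidney Gk and Fbp1 were higher and Lipe lower. Gk, the glycerol kinase, was at 74.3 and 48.9 in kidney, 18.6 and 27.4 in small intestine, 7.55 and 8.04 in liver and 2.09 and 2.01 in lung. Liver had the highest Aqp9 and a Gk level below those of kidney and small intestine. In liver 2 genes of the list were higher (Mgll and Fbp1) and 4 lower, and in lung 2 were higher and 3 lower.

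Among genes of airway and alveolar fluid transport, the 3 subunits of the epithelial sodium channel (Scnn1a, Scnn1b and Scnn1g) and Slc12a2, a chloride uptake transporter, were higher in lung, where Aqp5 was high. Scnn1g was at 41.6 and 47.1 in lung and 10.5 and 5.72 in kidney, and it was called higher in kidney as well, as was Scnn1b. In small intestine Slc12a2 and Cftr, the chloride channel, were higher, with Cftr at 7.09 and 7.69, and the 3 sodium channel subunits were lower. In liver these 5 genes were all lower.

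For each member, the 2 genes with the closest pattern over the 8 libraries were taken by Pearson's r of log2(FPKM + 1) among genes with a mean of at least 10 in the member's highest tissue. The 8 points are pairs from 4 tissues and share library and depth between genes. The closest were Nt5e (0.996) and Sumf1 (0.994) for Aqp1, Gm4208 (0.999) and Emx1 (0.998) for Aqp2, Kl (0.9997) and Gm23952 (0.9996) for Aqp6, and Stmnd1 and Tnni3 (both 0.998) for Aqp5. Tnni3 is a cardiac troponin, and 5 cardiac muscle markers summed to 151 and 149 in lung and to at most 8.98 elsewhere. For Aqp4 they were Acss1 and Rtn3 (both 0.990), and for Aqp8 Gstm4 (0.990) and Reep6 (0.988). For the aquaglyceroporins they were Vdac1 (0.990) and Idh3g (0.988) with Aqp3, Slc7a8 (0.998) and Vdr (0.996) with Aqp7, and C8b (0.9998) and Apoa5 (0.9997) with Aqp9. Ces2d-ps (0.995) and Sdhd (0.994) were closest to Aqp11. The number of genes above an r of 0.95 ranged from 31 for Aqp8 to 615 for Aqp5.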

How the data were processed

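Bulk RNA-seq was carried out on 8 libraries, 2 each of mouse kidney, lung, liver and small intestine. The authors selected reads by sample index, mapped them with STAR 2.5.3a to the Ensembl mouse genome and deposited FPKM values for 52195 genes, made with DESeq2's fpkm function, and the version of DESeq2, the program that counted reads and its use of strand are not given in the sources used here. FPKM depends on the gene length used and on the few genes that fill a library.

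From the deposited FPKM, reads on genes were recovered with exon lengths of GENCODE M21 (GRCm38), to which 99.3% of symbols matched. Within 0.02 reads, 94.5% to 96.1% of low values per library were whole. For Aqp2, Aqp4, Aqp5 and Aqp6 the annotated length did not give whole reads in every library. The shortest length that did, within a searched range, was used for reads alone. The read counts of these genes therefore rest on a fitted length. A floor of 3 reads was used for detection. Per library, reads on genes numbered 9164187 to 21444675.

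The 16328 genes that reached an FPKM of 1 in 2 libraries or more were tested on log2(FPKM + 1) with limma 3.58.1 (R 4.3.3), in 1 fit with 4 tissue means and a trended eBayes step, Benjamini-Hochberg adjustment within each comparison, and thresholds of 0.05 and of 1 on the log2 difference. Intervals are at 95% and are not adjusted for the number of comparisons. Single members were also tested by an exact two-sided permutation test. The limma step was tested on simulated data. Alternatives changed the pseudocount, filter, scaling, trend, replicate block, test and libraries. Promoters came from RefSeq (GRCm38.p6). Figures and sequences used Python 3.11.15 with matplotlib 3.10.9 and Biopython 1.88.

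The text names all 10 members, the other aquaporin genes, listed pathway and marker genes beside a member result, and the 2 genes closest to each member. Aqp10-ps was named after its values were seen. For 1 gene of a pathway list no result is given. The members and lists were chosen with earlier results of these data known. Replicate numbers were not used as pairs, since the labels tie none to a mouse: deviations of same-numbered libraries correlated between tissues at -0.217 to 0.0528.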

Additional observations from a re-analysis of the deposited data

How the results depend on the processing

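Of 890 values of single members under 18 alternatives, 852 kept their direction and their side of the threshold, 15 lost a call, 15 gained one and 8 turned direction. The 8 were the log2 difference of Aqp1 between kidney and lung with the same sum without mitochondrial genes (-0.013), without kidney replicate 1 (-0.19) and without lung replicate 1 (-0.11), that of Aqp4 in lung under median-of-ratios scaling (-0.38) and quantile normalization (-0.53), that of Aqp4 in small intestine with the same sum without mitochondrial genes (-0.0067), and that of Aqp11 in liver under median-of-ratios scaling (0.35) and quantile normalization (0.39). None of these 8 values belonged to a member called in the comparison concerned, and the cause was not tested. Of the counts of members called, that of lung higher went from 2 to 1 under median-of-ratios scaling, where the share of all genes went from 40.7% to 14.6%. With limma-voom on recovered reads lung lower went from 7 to 4 (8.26% to 9.07% of all genes) and small intestine lower from 5 to 3 (11.3% to 15.2%). Members above their next tissue went from 5 to 8 under median-of-ratios scaling (34.5% to 30.1%). The members lost in lung with limma-voom were Aqp2 (-1.76), Aqp3 (-0.25) and Aqp9 (-0.95), and the cause was not tested.

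With 1 library left out, the counts of members called higher ranged from 4 to 6 in kidney, 2 to 2 in lung, 2 to 2 in liver and 3 to 4 in small intestine, those called lower from 3 to 3, 7 to 7, 7 to 7 and 4 to 5, and those above their next tissue from 5 to 6. The difference of Aqp1 between kidney and lung ranged from -0.19 to 0.19. The calls lost were Aqp7 in kidney (0.91) and Aqp6 in small intestine (-0.99) without kidney replicate 1, and Aqp1 (-0.88) and Aqp3 (0.83) in small intestine without small intestine replicate 1. The replicate block changed no call, with 5 members called higher in kidney and 5 above their next tissue as without it. The deviations of same-numbered libraries correlated at -0.217 to 0.0528, the numbers were not used as pairs, and which mouse gave each library is not known here. Leaving out mitochondrial genes together with their 7 pseudogenes, chosen after seeing the data, added Aqp4 (1.36) and Aqp11 (1.21) to those higher in kidney, and the share of all genes called there went from 8.65% to 15.4% and their median from -0.34 to 0.07. Under a filter of FPKM 5 in 2 libraries, 40 single-member values could be computed in place of 50.

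Of 80 values, 23 were at 3 reads or fewer, from 7 members (Aqp2, Aqp3, Aqp5, Aqp6, Aqp7, Aqp8 and Aqp9), and their ranks among each other, which enter the count of pairs, carry no meaning. No pair in which both tissues were at this level was called. How multi-mapping reads were treated is unknown, and Aqp7 has the highest share of shared words.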

Other observations

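Of the other aquaporin genes in the table, Mip, the water channel of the lens, was listed at 0 in all 8 libraries. The pseudogene Aqp10-ps was at an FPKM of 0.335 and 0.263 in lung and at 0 in the other 6 libraries, and was named after its values were seen. Aqp12 and Mip did not pass the filter on low values and were not tested.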
